A study of Drosophila melanogaster with 4 samples.

Results

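Isolated clusters of acetylated histone H4 lysine 8 (H4K8ac) were enriched regions that stood alone in the chromatin of adult fly heads, with at least 15 kb free of any other enriched region on both sides. They were chosen by position alone from the authors' combined replicate set, on the arms 2L, 2R, 3L, 3R and X. The first and last cluster of an arm had a neighbour on a single side and could not qualify. The rule found 242 isolated clusters among 10605 on these 5 arms, or 2.28%, and 10650 were listed on all sequences. They are set beside 3913 crowded clusters, which had a neighbour within 2 kb on both sides, while 6450 clusters were in neither class. Isolated clusters held 0.592 Mb, or 1.24% of all cluster bases on these arms, whereas crowded clusters held 44.0%.

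H4K8ac is a histone mark placed by acetyltransferases on the tail of histone H4. Like other acetylation of this tail, it neutralises a positive charge of the lysine, is read by bromodomain proteins and is found at promoters, enhancers and transcribed chromatin. Active genes in flies often lie close together, with stretches of inactive or repressed chromatin between them.

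The samples were 2 H4K8ac ChIP libraries and 2 input libraries from head nuclei of mixed adult Drosophila melanogaster, wild-type strain Oregon-R. Heads hold neurons, glia, eye, fat body and muscle together, so a cluster can come from a part of the cells. No sex is given in the labels, and they do not say whether the replicates were separate fly collections. Each ChIP library had a list of clusters called against its own input, with 8135 clusters in replicate 1 and 8126 in replicate 2 on the 5 arms. Read totals are not in these lists, so depth is unknown. No marker genes could be measured to check the tissue, and the input libraries gave no values of their own.

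Isolated clusters occurred on every arm at about the same density. Their number was 44 on 2L, 43 on 2R, 56 on 3L, 50 on 3R and 49 on X. Per Mb of arm, this was 1.91 on 2L, 2.03 on 2R, 2.28 on 3L, 1.79 on 3R and 2.19 on X. As a share of an arm's clusters, they ranged from 1.96% on 3R (exact 95% binomial interval 1.46 to 2.58) to 2.67% on 3L (2.03 to 3.46), so the intervals of the extreme arms overlapped. Every interval is an exact Clopper-Pearson one; it covers counting error only, while clusters near each other share chromatin and libraries.

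Isolated clusters were mostly short and faint. Their median length was 1522.5 bp (quartiles 1199 and 1994 bp), against 2692 bp for crowded clusters and 2082 bp for all clusters. Lengths under 1301 bp, the shortest length in either replicate list, accounted for 88 isolated clusters (36.4%), against 586 crowded ones (15.0%). Length and spacing come from the same list, so this is a description and no test applies.

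The authors' score was read from its values as the log2 of ChIP over input counts, up to a constant. Its median was 0.41 (quartiles 0.34 and 0.49) in isolated clusters, against 0.48 (0.40 and 0.58) in crowded ones. These medians are 1.33-fold and 1.39-fold on the linear scale. At like length the score was lower in isolated clusters in some classes and not in others. Between 1301 and 2000 bp it had a median of 0.35, against 0.39 in crowded clusters, and between 2001 and 4000 bp it had a median of 0.43, against 0.47. Between 4001 and 10000 bp the medians were 0.53 for isolated and 0.55 for crowded clusters. Below 1301 bp both were 0.42, and over 10000 bp the isolated median was 0.70, against 0.68. Score rose with length less regularly in isolated clusters, where Spearman's rho across clusters was 0.182, against 0.672 in crowded ones. The range of length was narrower in isolated clusters, whose 90th percentile was 4039 bp, against 12194 bp in crowded clusters.

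**Figure D1:**
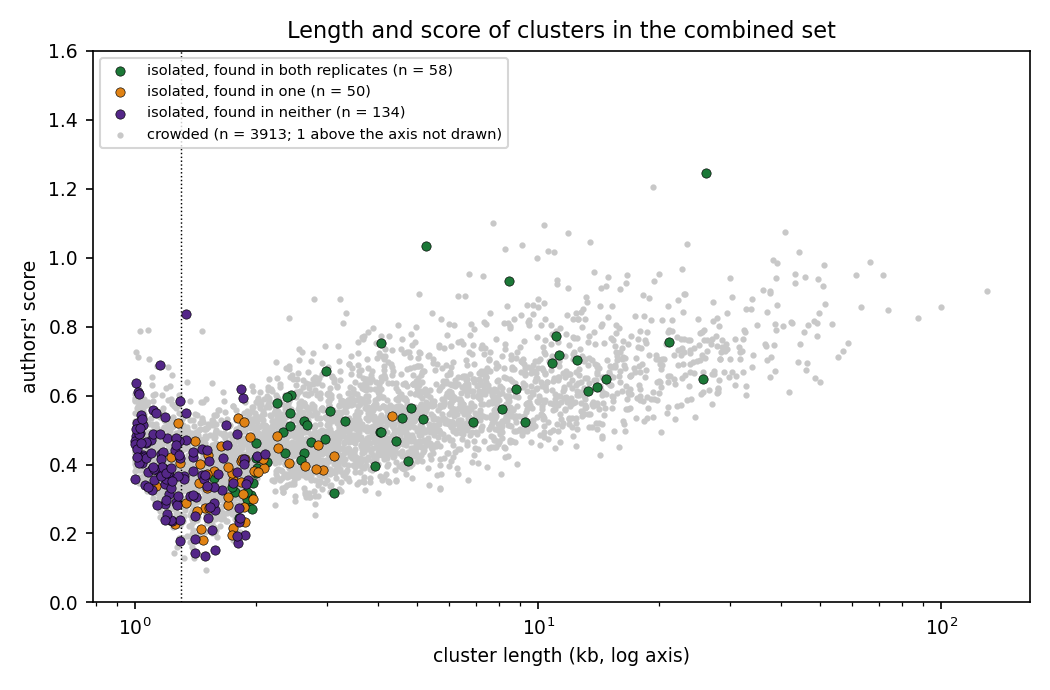
Length (kb, log axis) and authors' score of every isolated cluster (coloured by the replicate lists it was found in) and of crowded clusters (grey). The dotted line marks 1301 bp, the shortest cluster of either replicate. The 58 isolated clusters found in both replicates lie to the right of that line, and 83 of the 88 to its left were found in neither.

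The score gap was present on each arm. For X, isolated clusters had a median score of 0.49, against 0.57 in crowded ones. Across 2L, 2R, 3L and 3R the isolated medians ran from 0.38 on 2R to 0.40 on 3L, against 0.45 on 2L to 0.46 on 2R for crowded clusters. The median of isolated clusters on X was thus above that of each autosomal arm, as for crowded ones, and they were the shortest, with a median of 1337 bp against 1493.5 to 1754 bp on the autosomal arms.

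A small set of isolated clusters were long domains. There were 10 isolated clusters of at least 10 kb (4.13%), against 510 crowded ones (13.0%). They lay on 2R (3), 3L (4), 3R (2) and X (1), and no isolated cluster on 2L reached that length. Each of the 10 was found in both replicate lists. So was every other cluster over 10000 bp, with 510 of 510 crowded ones and 1041 of 1041 of all classes.

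The longest isolated cluster was also the strongest. It lay at 2R 5428946 to 5454980, measured 26.0 kb and scored 1.25, or 2.37-fold. Replicate 1 covered 99.8% of it with a single cluster of score 1.30, and replicate 2 covered 97.2% with 2 clusters, the longer-overlapping of which scored 1.06. Its gaps were 21.6 kb and 18.2 kb. The whole numbers read from its score were 683 for ChIP and 323 for input. That is 12.4 input reads per kb if they share no factor that the score has lost.

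The next in length lay at 3R 9058221 to 9083845 and measured 25.6 kb, with a score of 0.65. It was broken into 4 clusters in replicate 1 and 7 in replicate 2, which covered 83.1% and 77.0% of it. The cluster at 3L 1576537 to 1597620 measured 21.1 kb and scored 0.75, in 4 pieces in replicate 1 and 3 in replicate 2. The remaining 7 long domains measured between 10.8 and 14.7 kb and scored from 0.61 to 0.77. In replicate 2 each of the 10 was held in at least 2 pieces. In replicate 1, 2 of the 10 were single clusters, those at 2R 5428946 and at 3L 19889000 to 19902308.

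X held many of the highest-scoring isolated clusters. Of the 10 highest-scoring isolated clusters, 5 lay on X and 6 were also among the 10 longest, and the other 4 were all on X. The cluster at X 1902764 to 1908025 measured 5.26 kb and scored 1.03, with 1.18 in replicate 1 and 1.09 in replicate 2. The cluster at X 18794081 to 18802555 measured 8.47 kb and scored 0.93, with 0.95 and 1.04 in the replicates. The cluster at X 19499081 to 19503148 measured 4.07 kb and scored 0.75, with 0.91 and 0.79. These 3 were chosen by their score in the combined set of the same libraries, so their replicate scores are no separate support.

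A single one of the 10 was found in neither replicate. It lay at X 20833710 to 20835046, measured 1.34 kb and scored 0.84. The whole numbers read from its score were 35 for ChIP and 22 for input, which is 16.5 input reads per kb if they share no factor that the score has lost.

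The most remote clusters were short. The median of the smaller of each isolated cluster's gaps was 21.5 kb (quartiles 17.5 and 29.5 kb), and the largest was 111.8 kb. In the group whose smaller gap was 50 kb or more, there were 20 clusters with a median length of 1497.5 bp, none over 2424 bp and a median score of 0.37. Where the smaller gap was under 20 kb, there were 109 clusters with a median of 1581 bp, a longest of 26035 bp and a median score of 0.42. No cluster was among both the 10 most remote and the 10 longest, or among both the 10 most remote and the 10 highest-scoring.

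The most remote cluster lay at 2L 5519510 to 5521321, with 211.1 kb on its left and 111.8 kb on its right free of clusters. It measured 1.81 kb, scored 0.23 and was found in neither replicate. On 2R the most remote lay at 130099 to 132181, with gaps of 110.4 and 226.9 kb, and was found in replicate 1 alone with a score of 0.54. On 3R it lay at 17307679 to 17308808, with gaps of 132.3 and 98.2 kb, and was covered to 100% by a replicate 1 cluster of score 0.47. These clusters of 2R and 3R were thus each in a single library.

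On 3L the most remote lay at 6805486 to 6806504, with gaps of 95.5 and 142.2 kb, and no replicate list held it. On X it lay at 13977756 to 13979458, with gaps of 86.1 and 62.2 kb, and was found in replicate 1 alone with a score of 0.67. Of the 10 most remote clusters, 2 were found in both replicate lists, 2 in replicate 1 alone and 6 in neither.

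The 2 found in both were modest in length. The cluster at 3L 6182107 to 6184530 measured 2.42 kb and scored 0.55, with 0.67 in replicate 1 and 0.59 in replicate 2. The cluster at 2L 22239066 to 22240967 lay 0.772 Mb from the centromere end, measured 1.90 kb and scored 0.29, with 0.40 in replicate 1 and 0.46 in replicate 2. Each had a higher score in both replicates than in the combined set.

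The clusters beside the 15 kb limit were few and varied in length. Just inside it were 3L 22693590 (smaller gap 15.013 kb, length 1868 bp), 3L 19260367 (15.016 kb, 1338 bp) and 3R 1295794 (15.034 kb, 1407 bp). Just outside it were 2L 13776759 (14.920 kb, 3480 bp), 3L 1516000 (14.898 kb, 3238 bp) and 2R 6118930 (14.786 kb, 1001 bp). Their scores were 0.42, 0.29 and 0.47 inside, and 0.39, 0.43 and 0.50 outside. In the same order, they were found in 0, 1 and 1 replicate lists inside, and in 1, 2 and 0 outside.

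Isolated clusters of the combined set were seldom held by both replicate lists. A cluster counted as found where a replicate cluster overlapped it by at least 1 bp. Found in both were 58 isolated clusters (24.0%, interval 18.7 to 29.9), against 1825 crowded ones (46.6%, 45.1 to 48.2) and 38.6% of all clusters on the 5 arms. Found in a single replicate were 50 isolated clusters (20.7%, 15.7 to 26.3), against 902 crowded ones (23.1%) and 23.8% of all. Found in neither were 134 isolated clusters (55.4%, 48.9 to 61.7), against 1186 crowded ones (30.3%) and 37.6% of all. Of these 134, 83 were under 1301 bp, the shortest length in either replicate list. Among isolated clusters of at least 1301 bp, 51 of 154 (33.1%, 25.8 to 41.1) were found in neither, against 645 of 3327 crowded ones (19.4%, 18.1 to 20.8). These isolated clusters were shorter, with a median of 1868 bp against 3243 bp. Within the length classes from 1301 to 10000 bp the isolated share found in neither was not higher. From 1301 to 2000 bp it was 51.6%, against 53.8%, and from 2001 to 4000 bp it was 5.88%, against 16.0%. Between 4001 and 10000 bp it was 0%, against 0.809%.

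The libraries were not equally represented among isolated clusters. Replicate 1 held 92 of the 242 isolated clusters and replicate 2 held 74. Of the 50 found in a single list, 34 were in replicate 1 and 16 in replicate 2. The matching counts for crowded and for all clusters are not given. The imbalance thus cannot be called particular to isolated clusters.

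The share found differed widely with length. Both replicate lists begin at 1301 bp and the combined set at 1001 bp. Below 1301 bp, 0 of 88 isolated clusters were found in both lists (interval 0 to 4.11), against 1 of 586 crowded ones. From 1301 to 2000 bp, 13 of 95 isolated clusters (13.7%, 7.49 to 22.3) were found in both, against 55 of 863 crowded ones (6.37%, 4.84 to 8.22). From 2001 to 4000 bp, 21 of 34 isolated clusters (61.8%, 43.6 to 77.8) were found in both, against 490 of 1089 crowded ones (45.0%, 42.0 to 48.0). In the classes from 1301 to 2000 bp and from 2001 to 4000 bp the isolated share was thus above the crowded one, with overlapping intervals. This order was opposite to that of the shares over all lengths.

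Longer isolated clusters were found in both lists in nearly every case. This held for 14 of 15 between 4001 and 10000 bp (93.3%), against 769 of 865 crowded ones (88.9%), and for 10 of 10 over 10000 bp, against 510 of 510. With crowded clusters weighted to the length classes of the isolated ones, 18.5% of crowded clusters would be found in both lists, 24.5% in a single list and 57.0% in neither, against 24.0%, 20.7% and 55.4% of isolated clusters. This weighting was chosen after the values were seen.

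**Figure D2:**
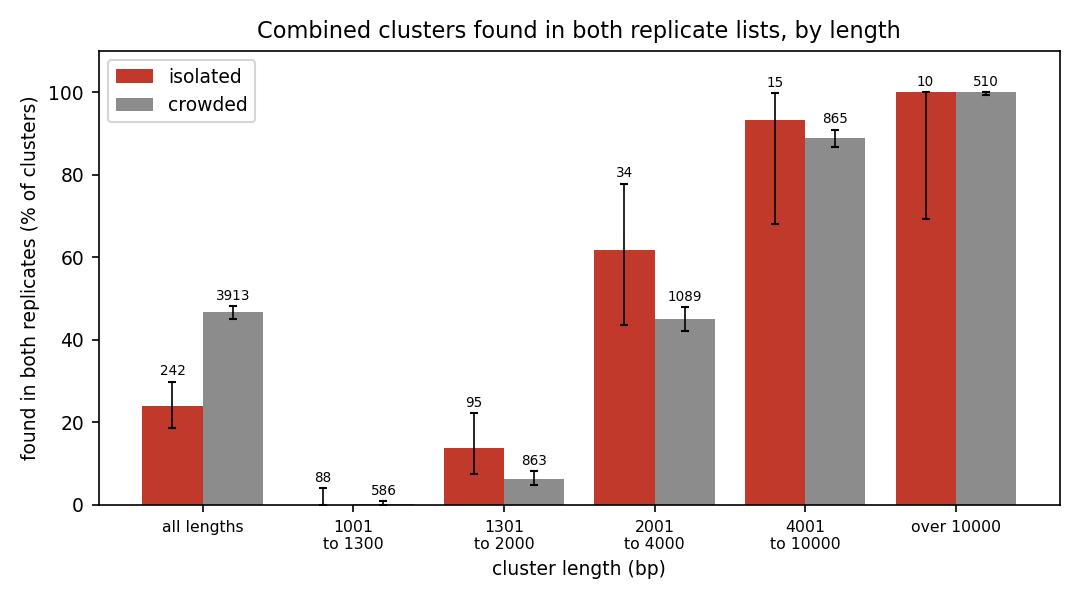
Share of combined clusters found in both replicate lists (% of clusters), by cluster length (bp), for isolated (red) and crowded clusters (grey). Error bars are exact 95% binomial intervals and the labels on the bars are numbers of clusters. Isolated clusters are lower over all lengths (24.0% against 46.6%) but not within the classes from 1301 to 10000 bp.

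A stricter measure gave the same order in the length classes from 1301 to 4000 bp. With at least 50% of the cluster's bases covered in each replicate, 52 isolated clusters (21.5%, 16.5 to 27.2) counted as found in both, against 1305 crowded ones (33.4%, 31.9 to 34.9). From 2001 to 4000 bp the shares were 55.9% (37.9 to 72.8) for isolated clusters and 32.5% (29.7 to 35.4) for crowded ones, whose intervals did not overlap. From 1301 to 2000 bp they were 13.7% (7.49 to 22.3) and 6.03% (4.53 to 7.83), and these intervals overlapped. Of the 58 isolated clusters touched in both lists, 52 thus had at least 50% of their bases in each.

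Isolated clusters of X were found in both lists in 7 of 49 cases (14.3%, 5.94 to 27.2), against 51 of 193 on the autosomal arms (26.4%, 20.4 to 33.2). The intervals overlapped, and the clusters of X were shorter. Crowded clusters had the same order, with 275 of 692 on X (39.7%), against 46.7% on 3L to 49.4% on 3R among the autosomal arms. By gap, the share found in both was 29.4% (15 to under 20 kb, n = 109), 20.0% (20 to under 30 kb, n = 75), 13.2% (30 to under 50 kb, n = 38) and 30.0% (50 kb or more, n = 20). It followed no steady order with distance.

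To choose isolated clusters without the list in which they were then looked for, the same rule was applied inside each replicate. Replicate 1 had 402 isolated clusters, of which 214 (53.2%, 48.2 to 58.2) overlapped a replicate 2 cluster, against 1938 of 2155 crowded ones (89.9%, 88.6 to 91.2) and 77.8% of all replicate 1 clusters. Replicate 2 had 357, of which 218 (61.1%, 55.8 to 66.2) overlapped a replicate 1 cluster, against 1940 of 2119 crowded ones (91.6%, 90.3 to 92.7) and 80.8% of all. The mean was 57.1% ± 5.54 for isolated clusters and 90.7% ± 1.15 for crowded ones (SD, n = 2 directions). Isolated clusters of a single library were thus found again less often in both directions. The directions share the same overlaps and are not separate experiments, so the SD does not measure the spread between replicates.

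Here isolated clusters also had the lower share within the length classes up to 4000 bp. Replicate 1 isolated clusters of 1301 to 2000 bp were found again in 37.7% of cases (31.9 to 43.7, n = 276), against 74.6% of crowded ones (71.1 to 78.0, n = 639). For replicate 2 the values were 48.6% (42.2 to 55.0, n = 249) and 79.3% (76.0 to 82.3, n = 671). From 2001 to 4000 bp, replicate 1 gave 83.2% (74.1 to 90.1) for isolated and 92.9% (90.8 to 94.6) for crowded clusters. In that class, replicate 2 gave 87.5% (78.2 to 93.8) and 95.0% (93.2 to 96.4), and these intervals overlapped. The order within length classes was opposite to that in the combined set, and the cause was not tested. A crowded cluster has other clusters close by that can supply an overlap of 1 bp, and how far this bears on the shares was not tested. Coverage of at least 50% could likewise come from more than 1 cluster of the other list. By that measure, from 1301 to 2000 bp, replicate 1 gave 34.8% for isolated and 63.4% for crowded clusters. For replicate 2 these shares were 45.8% and 68.9%.

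**Figure D3:**
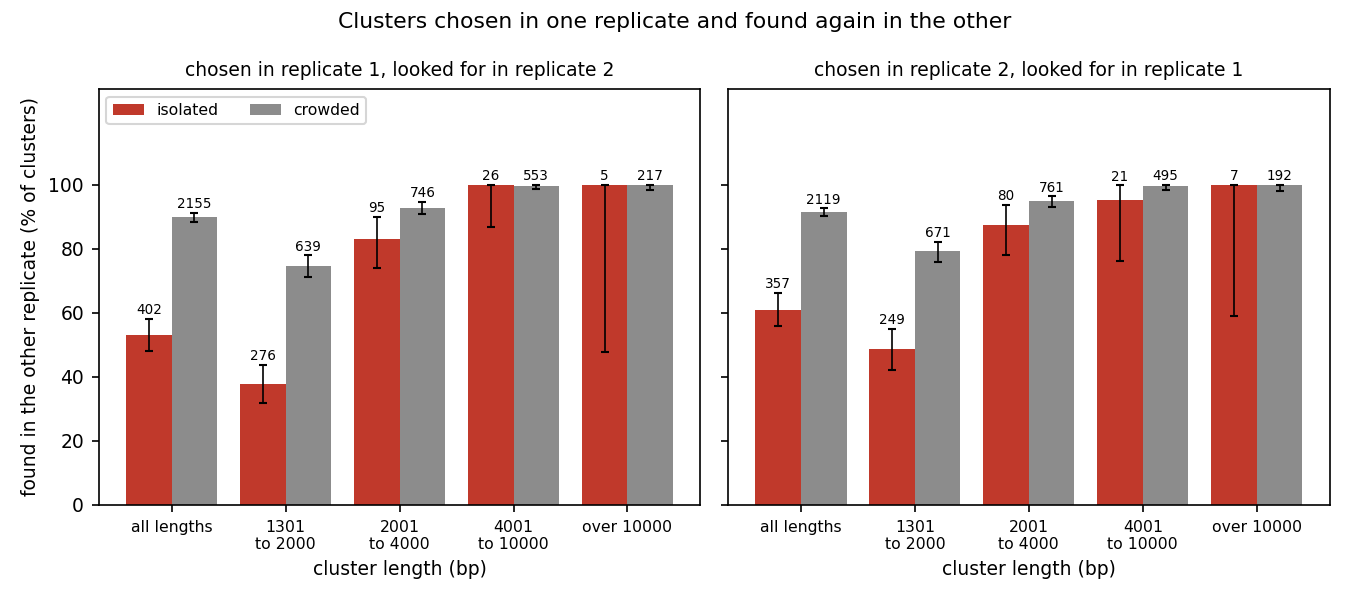
Share of clusters chosen in a replicate that overlapped a cluster of the other replicate by at least 1 bp (%), by length (bp), for isolated (red) and crowded clusters (grey). Error bars are exact 95% binomial intervals and the labels on the bars are numbers of clusters. From 1301 to 2000 bp the isolated shares were 37.7% and 48.6%, below 74.6% and 79.3% of crowded clusters.

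Length and score of the clusters chosen within a replicate followed the same order as in the combined set. The median length was 1755.5 bp in replicate 1 and 1711 bp in replicate 2 for isolated clusters, against 2952 and 2749 bp for crowded ones. The median score was 0.59 and 0.57 for isolated clusters, against 0.70 and 0.67 for crowded ones. X held the largest share of isolated clusters within each replicate, at 6.64% of its clusters in replicate 1 and 6.04% in replicate 2, against 3.63% to 5.53% on the autosomal arms. In the combined set X had 2.36%, between the shares of the autosomal arms.

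Most isolated clusters that a replicate list held were isolated there too, but many of the 242 were not held. Replicate 1 held 92 of them, and 79 overlapped a cluster that was also isolated in replicate 1. Replicate 2 held 74, and 59 overlapped a cluster isolated in replicate 2. Of the 58 found in both lists, 41 met both conditions. Matching shares for crowded clusters are not given. Of the 402 clusters isolated in replicate 1, 289 overlapped a combined cluster in neither class, 25 a crowded one and 9 no combined cluster. Of the 357 in replicate 2, the numbers were 266, 27 and 5.

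Where both replicates held an isolated cluster, their scores were similar. Of the 58 found in both, 41 overlapped 1 cluster in each list one to one, and 17 were split in at least 1 list. Over the 41, the median score was 0.57 for replicate 1 and 0.52 for replicate 2, with 0.46 for the combined set, against 0.65, 0.64 and 0.53 over 858 crowded clusters. The difference between replicates had a median of 0.03 and an SD of 0.11, and replicate 1 was the higher in 26 of 41. Across these 41 clusters Spearman's rho between replicates was 0.607 and Pearson's r was 0.777, which also reflects that clusters share their position and libraries. Both replicate scores were above the combined score in 32 of 41, and both replicate lengths were below the combined length in 37. Among the 858 crowded clusters these counts were 712 and 814, and replicate 1 was the higher in 505. These traits were thus shared with crowded clusters.

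Isolated clusters lay near the centromere ends of the arms more often than crowded ones. Within 1 Mb of that end lay 14 of 242 isolated clusters (5.79%, 3.20 to 9.52), against 36 of 3913 crowded ones (0.920%, 0.645 to 1.27) and 1.57% of all clusters, while this stretch is 4.20% of the arms, a value inside the isolated interval. Of the 14, 5 were on 2L, 5 on 2R, 2 on 3R, 2 on X and 0 on 3L, where no cluster of any class lay in that stretch. On 2L and 2R they were 5 of 16 and 5 of 10 clusters there. On 3R and X they were 2 of 84 and 2 of 56, so 10 of the 14 were on chromosome 2.

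Within 1 Mb of the telomere end lay 4 isolated clusters (1.65%, 0.452 to 4.18), against 124 crowded ones (3.17%, 2.64 to 3.77). With each arm cut into 10 stretches of equal length from the centromere end, the isolated clusters numbered 32, 28, 30, 32, 25, 25, 28, 13, 12 and 17. They made up 5.19% of the clusters of the stretch nearest the centromere and 1.22%, 1.11% and 1.67% of those in the last 3 stretches. The outer part of the arms was thus poorer in isolated clusters, in number and as a share.

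**Figure D4:**
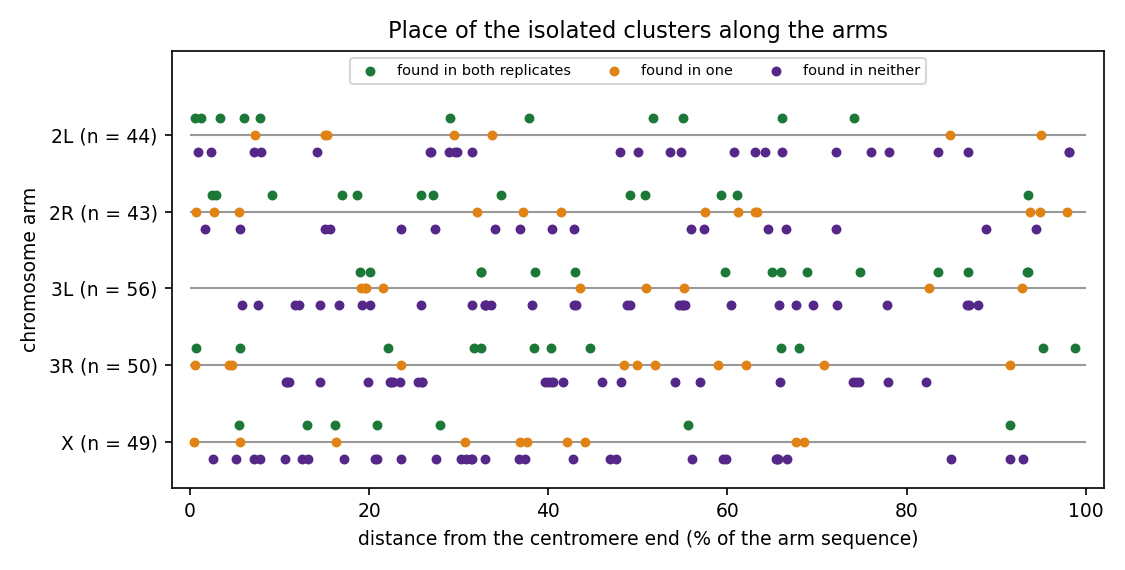
Position of each isolated cluster along its arm (% of the arm sequence from the centromere end), in rows for the 5 arms and coloured by the replicate lists it was found in. On 2L and 2R, 5 clusters each lie within 1 Mb of the centromere end, whereas none does on 3L.

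Neighbouring isolated clusters share a gap that the rule required of both, so runs of them are given as a description. In 133 cases the next cluster on either side was not isolated, while 34 pairs, 11 triples and 2 runs of 4 were made of consecutive isolated clusters. The longer run of 4 spanned 151.7 kb at 3L 19604737 to 19756464, and the other 76.0 kb at 3L 10979780 to 11055743. The widest triple spanned 276.2 kb at 2L 21343997 to 21620186. The window from 19 to 20 Mb of 3L had 8 isolated clusters among 91, the most of the 117 windows of 1 Mb. The median window had 2, and 20 windows had none.

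The rule itself asked for empty stretches of at least 15 kb beside each isolated cluster, so their length is a description. There were 422 distinct gaps next to them, with a median of 27.7 kb, and together they covered 19.0 Mb or 16.0% of the arms. A gap of at least 50 kb bordered 92 isolated clusters, and 20 had such gaps on both sides. Isolated clusters bordered 98 of the 218 gaps of that size, and 422 of the 1121 gaps of at least 15 kb. The nearest neighbours were themselves short, with a median of 1680.5 bp and a median score of 0.42, 72 of them were isolated and 10 reached 10 kb.

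The scores allow a reading of the counts behind them. For 100% of the clusters of each of the 3 lists, 2 raised to the score equalled 1 whole number over another times a factor fixed per list. The factor was 1.12 for the combined list, 1.03 for replicate 1 and 1.22 for replicate 2. The numbers are in lowest terms and can lie below the true counts where these share a factor, so the upper quartile per kb is given, over clusters of 1301 to 4000 bp. On the autosomal arms of the combined set, the input number per kb had an upper quartile of 233 in isolated clusters, against 192 in crowded ones, a ratio of 1.21. In replicate 1 it was 105 against 93.0 (ratio 1.12), and in replicate 2 it was 114 against 103 (1.11).

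On X the ratios of this upper quartile were 1.12 in the combined set, 1.09 in replicate 1 and 1.07 in replicate 2. The upper quartile over 1301 to 4000 bp was thus higher in isolated clusters in all 3 lists, but the median was not. For the autosomal arms the median input number per kb was 183 in isolated clusters, against 167 in crowded ones, in the combined set, 73.3 against 77.8 in replicate 1 and 90.4 against 89.1 in replicate 2. For X it was 89.3 against 94.0 in the combined set, 38.4 against 44.6 in replicate 1 and 51.6 against 56.4 in replicate 2. Within narrower length classes on X the upper quartile was lower in isolated clusters in replicate 1 from 1301 to 2000 bp (52.2 against 53.9) and in replicate 2 from 2001 to 4000 bp (62.5 against 64.5). The corresponding upper-quartile ratios for ChIP on the autosomal arms were 1.16 in the combined set, 1.05 in replicate 1 and 1.02 in replicate 2, each smaller than the ratio for input. On X they were 0.98, 0.96 and 0.96. The ChIP and input numbers are read from the same score. The smaller ratios for ChIP thus largely restate the lower scores and are no separate result. How input depth bears on the lower scores of isolated clusters was not tested.

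**Figure D5:**
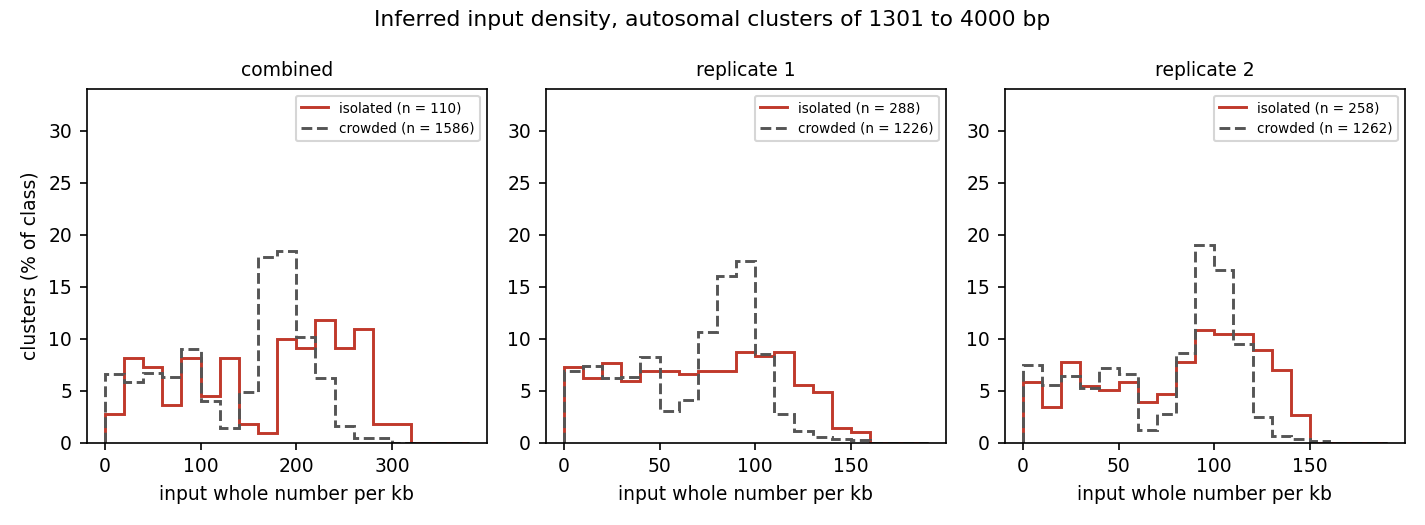
Distribution of the input whole number per kb (% of the clusters of a class) for autosomal clusters of 1301 to 4000 bp in the combined set and in each replicate. The isolated clusters (solid red) extend to higher values than the crowded ones (dashed grey), with upper quartiles of 233 against 192 in the combined set.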

How the data were processed

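H4K8ac ChIP-seq was made from head nuclei of Oregon-R adults, with 2 ChIP and 2 input libraries. The deposited lists hold regions and the authors' score for each, in FlyBase release 5 coordinates per the file headers. Per the submitters' processing notes, Bowtie 0.12.7 was among the tools. The sources used here do not give the caller, its threshold, the scale of the score or the step that joined the replicates. The score was used as deposited, and 1 region marked as depleted was left out.

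Gaps were counted in bases between neighbouring clusters. Overlap meant at least 1 bp. Tables were made with Python 3.11.15, NumPy 2.4.6, pandas 2.3.3 and SciPy 1.17.1. Overlaps of the combined list with each replicate list were checked against bedtools 2.31.1 on the deposited regions. Gap classes and the reading of whole numbers were checked on simulated data. Scores were read as ratios of whole numbers within a relative tolerance of 1e-12, with denominators up to 200000. No test was run, since the lists that choose the clusters also give their values. Named clusters were the 10 most remote, 10 longest and 10 highest-scoring, the most remote on each arm, and 3 on either side of the limit. Members, lists and rules were chosen with earlier results of these data known. Depth is unknown, and no annotation of release 5 was used, so no genes are named.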

Additional observations from a re-analysis of the deposited data

How the results depend on the processing

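The 9 results were recomputed in 59 alternative values, of which 37 were close to the main value, 21 moved and 1 reversed. Close meant within the counting interval for shares and their difference, within 1 SD between replicates for medians, and within 1.5 times for the number of clusters. A gap limit of 10 kb gave 480 isolated clusters, and 20 kb gave 133 with a median length of 1445 bp. With clusters under 1301 bp left out before the rule, the median length was 1864 bp, 33.1% were found in both replicates and 37.1% in neither. Keeping the upper 50% of clusters by score gave 438 isolated clusters with a median of 2987 bp and a median score of 0.52, of which 59.8% were found in both, 29.7% in neither and 4.34% near an arm end, and a difference from crowded clusters of -6.23 percentage points. Merging clusters less than 500 bp apart gave 1700.5 bp, a score of 0.42 and 30.1% found in both. The main difference in the share found in both, isolated minus crowded, was -22.7 points. With 50% coverage asked for, it was -11.9 points. With crowded clusters weighted to the isolated length classes, an alternative added after seeing the data, it reversed to 5.44 points; this weighting gives both classes the same mix of length classes. With each replicate list left out of the search in turn, the share found in the remaining list ranged from 30.6% to 38.0% and the share not found from 62.0% to 69.4%. The clusters were still those chosen in the combined set. These shares could not lie below the shares found in both and in neither, so the direction of their move was fixed. They are counted among the values that moved. No paired analysis was possible because each ChIP library had a single list and no groups were compared over samples. Unknown depth limits what is said of clusters found in neither list: they were not listed there, which does not show that acetylation was absent.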

Other observations

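The combined set held nearly every region that the replicate lists held. On the 5 arms, 19 clusters of replicate 1 and 14 of replicate 2 overlapped no combined cluster. Of these, 7 of replicate 1 and 3 of replicate 2 lay wholly inside the empty stretches beside isolated clusters. Over all their clusters, replicate 1 covered 0.0705% and replicate 2 covered 0.0369% of the bases of these stretches.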
